A study of Mus musculus with 9 samples.

Results

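The genes described here are 34 genes of sugar breakdown and of the response to low oxygen, out of 36 that were listed. They were chosen by name, from probe sets that carry exactly 1 gene symbol, and where a gene has several, the one brightest on average over the 9 arrays stands for it. The table holds 18194 genes with such a probe set. Of the 34 genes, 24 belong to glycolysis and the use of pyruvate and 10 to the hypoxia response. Eno1 and Gpi1 were listed too but have no probe set with 1 symbol in the annotation used, and were not analysed here.

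RNA was taken from cells of mouse forelimb buds at embryonic day E10.5, sorted by flow cytometry for green fluorescent protein (GFP), and measured on Affymetrix Mouse430_2 arrays, 3 arrays in each of 3 groups. The PAX3-FKHR GFP+ cells came from Pax3PAX3-FKHR/GFP embryos, in which 1 Pax3 allele carries GFP and the other carries the fusion of PAX3 with FKHR, a strong activator of Pax3 targets. That allele was conditional and was switched on in the whole embryo by a PGK-Cre transgene, so these embryos have no intact Pax3 allele. The control GFP+ cells came from Pax3GFP/+ embryos, in which GFP replaces 1 Pax3 allele and the other is wild-type. The GFP- cells are the remaining cells of the limb bud, and their genotype is not labelled; the methods name both Pax3GFP/+ and Pax3+/+. Limb buds of many embryos were pooled by genotype before sorting, the lines were bred on a C57BL6/DBA2 background, and the 3 samples per group are described as biological replicates. Whether the control embryos carried Cre is not stated in the sources used here. Values are given on the log2 scale of RMA, so a difference of 1 is a 2-fold change.

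Glycolysis splits glucose into pyruvate in the cytoplasm. Transporters of the Slc2a family let glucose in, hexokinase and phosphofructokinase commit it to breakdown, and the lower enzymes from Gapdh to Pkm yield ATP. Lactate dehydrogenases turn pyruvate into lactate, which leaves through Slc16a transporters. Pyruvate dehydrogenase kinases inhibit pyruvate dehydrogenase, the enzyme that uses pyruvate inside the mitochondria. In low oxygen the factors HIF-1 alpha (Hif1a) and HIF-2 alpha (Epas1) escape the prolyl hydroxylases Egln1 and Egln3 and switch on target genes, which include Egln3 itself and many glycolytic enzymes. Developing muscle uses isoforms of its own for some steps, such as the enolase Eno3 and the mutase Pgam2.

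The promoters of 3 genes on which the results turn are printed as the 250 bases before the RefSeq transcription start (GRCm38.p6), read along the gene's strand. Egln3 lies on the minus strand at chr12:54203875-54204124, and capitals mark ACGTG, the core of the element bound by HIF, whose first base lies 229 bases before the start. Eno3 lies on the plus strand at chr11:70656926-70657175 and Pgam2 on the minus strand at chr11:5803797-5804046. In both, capitals mark CANNTG, the E-box bound by myogenic factors such as MyoD.
Egln3: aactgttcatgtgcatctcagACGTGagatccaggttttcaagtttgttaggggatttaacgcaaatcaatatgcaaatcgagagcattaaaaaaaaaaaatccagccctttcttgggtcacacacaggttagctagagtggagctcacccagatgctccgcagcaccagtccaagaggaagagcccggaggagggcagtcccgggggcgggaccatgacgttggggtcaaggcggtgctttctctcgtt
Eno3: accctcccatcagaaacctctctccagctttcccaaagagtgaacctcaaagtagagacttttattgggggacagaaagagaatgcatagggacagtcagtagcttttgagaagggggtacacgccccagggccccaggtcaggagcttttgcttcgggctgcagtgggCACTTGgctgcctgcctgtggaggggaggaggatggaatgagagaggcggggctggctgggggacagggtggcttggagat
Pgam2: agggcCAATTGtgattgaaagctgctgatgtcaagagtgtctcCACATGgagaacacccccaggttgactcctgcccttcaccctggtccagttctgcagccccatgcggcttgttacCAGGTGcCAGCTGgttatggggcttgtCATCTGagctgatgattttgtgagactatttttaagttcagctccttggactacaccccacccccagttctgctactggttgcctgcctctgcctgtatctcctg

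The Eno3 window holds 1 E-box, 81 bases before the start, and the Pgam2 window holds 5, at 245, 207, 132, 125 and 105 bases before it. Each sequence has 1 kind of motif marked, and the motifs do not divide the genes: the Egln3 window also holds 2 E-boxes, and the Eno3 window also holds 1 HIF core of the form GCGTG, at position -130 from the start. Of the 34 genes, 30 have a window in the RefSeq table, with 42 windows in all. Epas1, Slc2a3, Ndrg1 and Slc2a4 have none. ACGTG or GCGTG, searched on both strands, occurred in 33 of these 42 windows (78.6%), against 38.6% of all 32851 windows of the same length. All 8 hypoxia genes with a window held 1 of these cores or both. CANNTG occurred in 26 of the 42 windows (61.9%) and in 66.2% of all windows. The sequence CACGTG counts under both ACGTG and CANNTG. A match of so few letters describes the sequence and is not evidence of binding.

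Before the results, the arrays were compared with their labels. Pax3 itself, read by its brightest probe set, was at 7.15, 6.83 and 7.33 in PAX3-FKHR GFP+ cells, at 9.92, 8.94 and 10.22 in control GFP+ cells and at 5.17, 5.14 and 4.77 in GFP- cells. It was highest in the control GFP+ cells and lowest in the GFP- cells, with no overlap. All 9 markers of limb muscle progenitors were higher in control GFP+ than in GFP- cells, and 10 of 11 markers of limb mesenchyme were lower. Markers of other tissues also moved with the sort, since 8 of 12 neural markers were higher in control GFP+ than in GFP- cells and 3 of 12 limb ectoderm markers were lower. Of 10 macrophage markers, 0 were called in any comparison. Of 11 genes induced by cell dissociation, Fos had a log2 difference of -1.88 between control GFP+ and GFP- cells and was called, and Jun was higher in PAX3-FKHR GFP+ than in control GFP+ cells, by 1.04. Between PAX3-FKHR GFP+ and GFP- cells 1 of the 11 was higher and 5 were lower, with a median of -0.80. Control GFP+ replicate 3 stands apart. Its Actb signal drops by 2.26 from the 3' to the 5' probe set, against 0.86 to 1.30 on the other arrays, and its array weight was 0.236, against 0.604 to 2.70.

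The question of the first comparison was which transcripts change when PAX3-FKHR takes the place of Pax3. Egln3 was higher in PAX3-FKHR GFP+ than in control GFP+ cells, and no other of the 34 genes passed the test. A gene was called when its adjusted p from limma was under 0.05 and its log2 difference was at least 0.5 (1.41-fold). Called were 1 of 10 hypoxia genes and 0 of 24 glycolytic genes, against 0.537% of all 45040 probe sets in either direction and 0.395% in the higher direction. Of all 18194 genes read by their brightest probe set, 0.813% were called, and 111 genes were called higher. At an unadjusted p under 0.05, 3 glycolytic and 3 hypoxia genes were higher and 0 were lower, beside 1584 higher and 1643 lower of all 45040 probe sets. The median log2 difference was -0.04 over the glycolytic genes and 0.19 over the hypoxia genes, beside -0.01 over all probe sets. The 3 arrays of each group did not overlap for 11 of the 34 genes (32.4%), beside 12.0% of all probe sets and 14.3% of all genes read by their brightest probe set.

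The second comparison asked which transcripts mark Pax3 positive cells of the limb. Control GFP+ cells had higher Egln3, Ndrg1, Eno3 and Pgam2 than GFP- cells. These are 2 of 10 hypoxia genes and 2 of 24 glycolytic genes, all higher, against 5.84% of all probe sets in either direction and 1.84% in the higher direction. Of all 18194 genes read by their brightest probe set, 4.72% were called, and 507 genes were called higher. Groups did not overlap for 12 of 34 genes (35.3%), beside 25.0% of all probe sets and 24.1% of all genes. PAX3-FKHR GFP+ against GFP- cells gave counts of 2 and 2 as well, and the genes called were again Egln3, Ndrg1, Eno3 and Pgam2. Over all probe sets, 6.79% were called in either direction and 2.80% in the higher direction. Of all 18194 genes read by their brightest probe set, 6.69% were called, and 710 genes were called higher. Groups did not overlap for 15 of 34 genes (44.1%), beside 27.5% of all probe sets and 27.9% of all genes. The 3 comparisons share arrays, so they are not independent of each other. In bulk samples such as these, more cells of a type and more RNA per cell cannot be told apart.

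**Figure D1:**
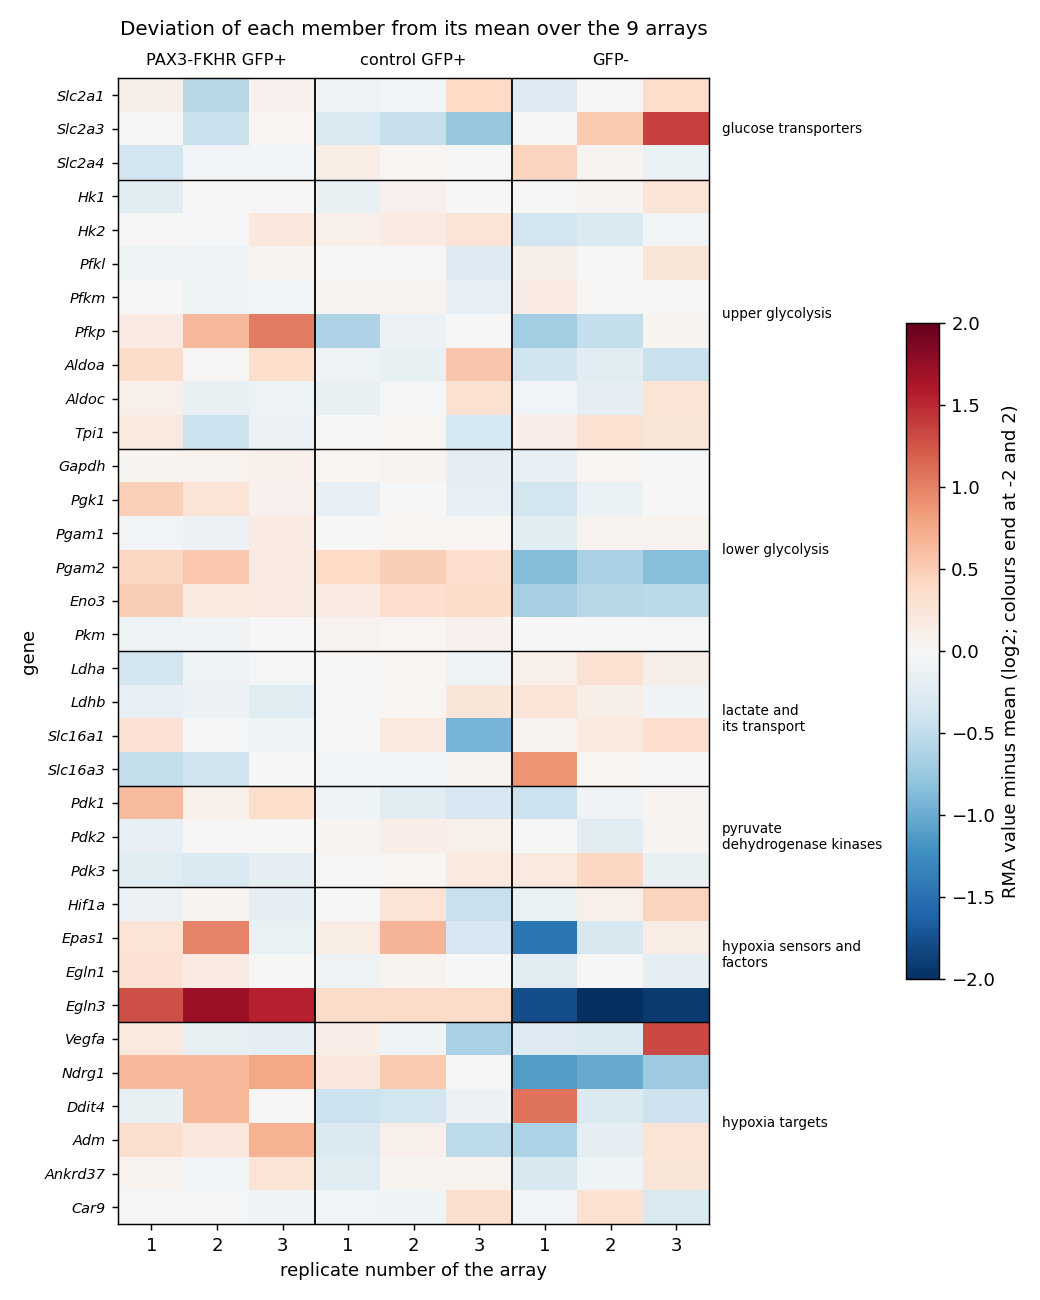
Deviation of each of the 34 genes (rows, grouped by role) from its own mean over the 9 arrays (columns, by group and replicate number), as log2 RMA values. Egln3 runs from 8.42 to 8.86 in PAX3-FKHR GFP+ cells down to 5.10 to 5.36 in GFP- cells, while most glycolytic genes stay pale on every array.

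Egln3, the prolyl hydroxylase that both senses oxygen and is itself a HIF target, had the widest range of the 34 genes between groups. Its level was 8.42, 8.86 and 8.69 in the 3 PAX3-FKHR GFP+ samples, 7.52 in each of the 3 control GFP+ samples, and 5.36, 5.10 and 5.22 in the GFP- samples. The 3 groups stand in this order without any overlap. PAX3-FKHR GFP+ cells exceeded control GFP+ cells by 1.14 ± 0.15 (SE, n = 3 per group), a 2.20-fold difference, with an adjusted p of 0.0082 by limma. Control GFP+ cells exceeded GFP- cells by 2.29 ± 0.15, a 4.90-fold difference (limma adjusted p = 2.92e-05). The difference between PAX3-FKHR GFP+ and GFP- cells was 3.43, or 10.8-fold (limma adjusted p = 1.96e-06). The GFP- values lie beside the median of all values, 5.11, so both folds against GFP- cells may be lower bounds. The 3 control GFP+ values are identical, at 7.5185, so leaving out replicate 3 could not change the first difference. It stayed at 1.14, with a limma adjusted p of 0.0218, and this is no check on that array. Identical values also add nothing to the estimated spread, so the SE and p-values of this probe set may be too small. The study's own lists, made from these arrays, hold Egln3, so its direction is not independent evidence.

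A second Egln3 probe set, 1418648_at, has lower values. It read 5.78, 6.26 and 6.06 in PAX3-FKHR GFP+ cells, 5.01, 4.99 and 4.95 in control GFP+ cells and 4.67, 4.62 and 4.52 in GFP- cells. The order of the groups was the same and again they did not overlap. It was called for PAX3-FKHR GFP+ against control GFP+ cells, at a difference of 1.05 (limma adjusted p = 0.00707). It was not called for control GFP+ against GFP- cells, where its difference was 0.38 (limma adjusted p = 0.135) and all 6 values lay under the median of all values, 5.11.

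**Figure D2:**
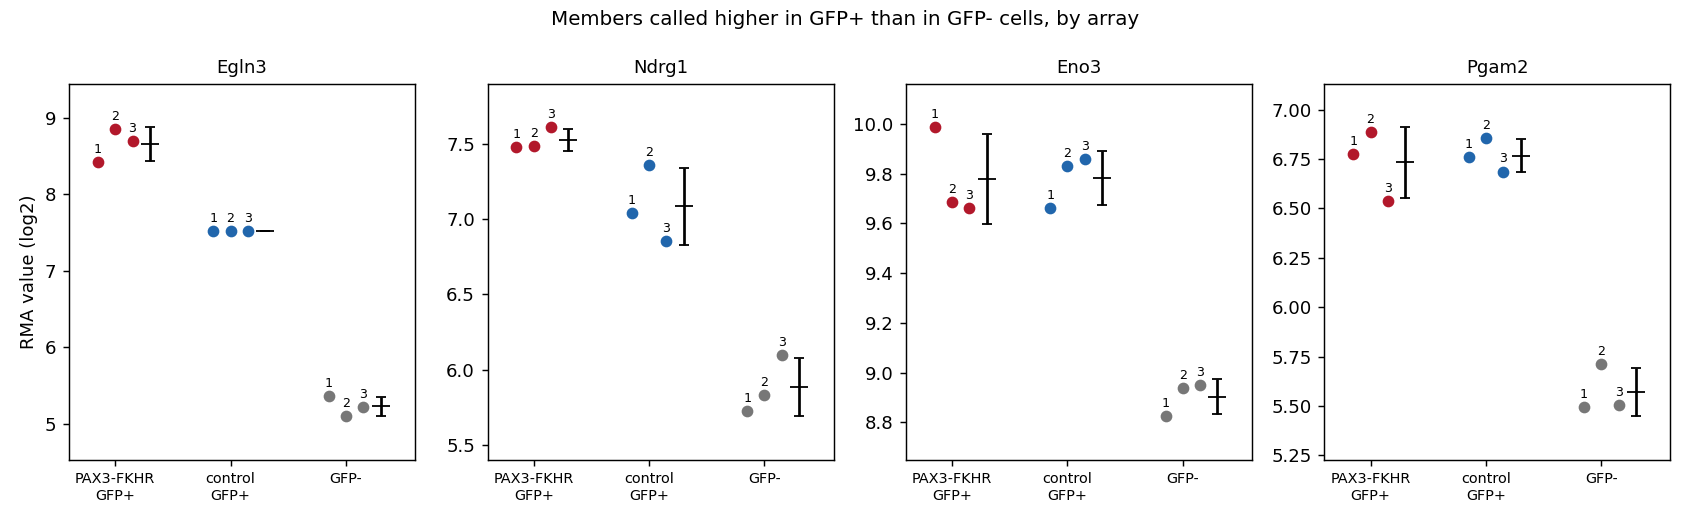
RMA value (log2, vertical axis) of the 4 genes called between GFP+ and GFP- cells, with 1 point per array labelled by replicate number and the mean ± SD of each group (n = 3) in black. All GFP+ arrays lie above all GFP- arrays for each gene, and the PAX3-FKHR GFP+ and control GFP+ arrays do not overlap for Egln3 and Ndrg1. Each gene is read by its brightest probe set, and the GFP+ groups overlap for the other Ndrg1 probe sets.

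The other oxygen sensors and factors were not called in any comparison. Hif1a, the alpha subunit of HIF-1, lay between 9.77 and 10.65 over all arrays, and its difference between PAX3-FKHR GFP+ and control GFP+ cells was -0.02 (95% interval -0.46 to 0.42). Both of its extremes, 9.77 and 10.65, come from replicates numbered 3, of control GFP+ and of GFP- cells. Egln1, the main hydroxylase of HIF-1 alpha, was at 9.86, 9.74 and 9.56 in PAX3-FKHR GFP+ cells against 9.48, 9.65 and 9.58 in control GFP+ cells, which overlap. Epas1, the HIF-2 subunit known from endothelium, varied most within groups: 6.39, 7.11 and 5.98 in PAX3-FKHR GFP+ cells, 6.25, 6.78 and 5.77 in control GFP+ cells, and 4.65, 5.79 and 6.26 in GFP- cells. In each GFP+ group replicate 2 was the highest and replicate 3 the lowest. The mean deviation of 12 endothelial markers had that same order, at -0.15, 0.27 and -0.32 in PAX3-FKHR GFP+ cells and 0.07, 1.03 and -0.27 in control GFP+ cells. In GFP- cells both the markers, at -0.81, -0.12 and 0.30, and Epas1 were lowest in replicate 1 and highest in replicate 3. Erythroid and macrophage markers had this replicate order in all 3 groups as well. The erythroid means were -0.54, 0.06 and -0.91 in PAX3-FKHR GFP+ cells, -0.73, 0.28 and -1.37 in control GFP+ cells and -1.12, 1.77 and 2.56 in GFP- cells, and the macrophage means were 0.02, 0.63 and -0.88, then -0.03, 0.32 and -0.70, then 0.10, 0.19 and 0.36. Of the endothelial markers 0 of 12 were called in any comparison, their summed level ran from 67.6 to 74.8, from 68.2 to 83.8 and from 61.8 to 75.1 in the 3 groups, and the part of these 3 cell types in the Epas1 values was not tested.

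Ndrg1, a stress-induced differentiation gene and HIF target, was the second hypoxia gene called. Its level was 7.48, 7.49 and 7.61 in PAX3-FKHR GFP+ cells, 7.04, 7.36 and 6.86 in control GFP+ cells and 5.72, 5.83 and 6.10 in GFP- cells. By this probe set all groups stand apart. Control GFP+ cells exceeded GFP- cells by 1.20 ± 0.17, a 2.30-fold difference (limma adjusted p = 0.00258), and by 1.32 without control GFP+ replicate 3 (limma adjusted p = 0.00247). For PAX3-FKHR GFP+ against GFP- cells the difference was 1.64 (limma adjusted p = 0.000259). Between the GFP+ groups it was 0.44, with a 95% interval of 0.07 to 0.81, and was not called (limma adjusted p = 0.589). The 5 probe sets of Ndrg1 differ. A second bright one, 1456174_x_at, was at 6.73, 6.91 and 7.35 in control GFP+ cells against 4.91, 5.52 and 5.61 in GFP- cells and was called too, at a difference of 1.65. The remaining 3 probe sets differed by 0.32, 0.41 and 0.33 in that comparison and were not called. Between the GFP+ groups the arrays overlapped for every Ndrg1 probe set except the brightest, and 1456174_x_at differed by 0.40. Ndrg1 too is in the study's list of genes of the GFP+ fraction.

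The other hypoxia targets were not called in any comparison. Adm, the vasodilator adrenomedullin, was at 5.68, 5.57 and 6.05 in PAX3-FKHR GFP+ cells and at 5.07, 5.45 and 4.84 in control GFP+ cells. The groups do not overlap, but the difference of 0.65 did not pass (limma adjusted p = 0.57). In GFP- cells Adm spanned 4.73 to 5.63. A dimmer Adm probe set, 1416077_at, lay under the median of all values on every array. There the GFP+ groups overlap, with a difference of 0.18. Vegfa, the endothelial growth factor, was at 6.65 and 6.62 in GFP- replicates 1 and 2 and at 8.22 in replicate 3, while the GFP+ arrays ran from 6.25 to 7.10. Ddit4, an inhibitor of mTOR signalling, was at 8.23 in GFP- replicate 1 against 6.85 and 6.72 in the others. It was at 6.99, 7.80 and 7.16 in PAX3-FKHR GFP+ cells and at 6.70, 6.77 and 7.02 in control GFP+ cells. That difference of 0.49 was not called (limma adjusted p = 0.81). For both Vegfa and Ddit4 the spread was widest in GFP- cells, where a single array stood out. The other Vegfa probe set, 1451959_a_at, had no such high value, at 5.69, 5.76 and 5.64 in GFP- cells. Ankrd37 lay between 5.90 and 6.50 over all arrays, and Car9, a carbonic anhydrase used as a hypoxia marker, between 4.29 and 4.91, under the median of all values on every array.

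**Figure D3:**
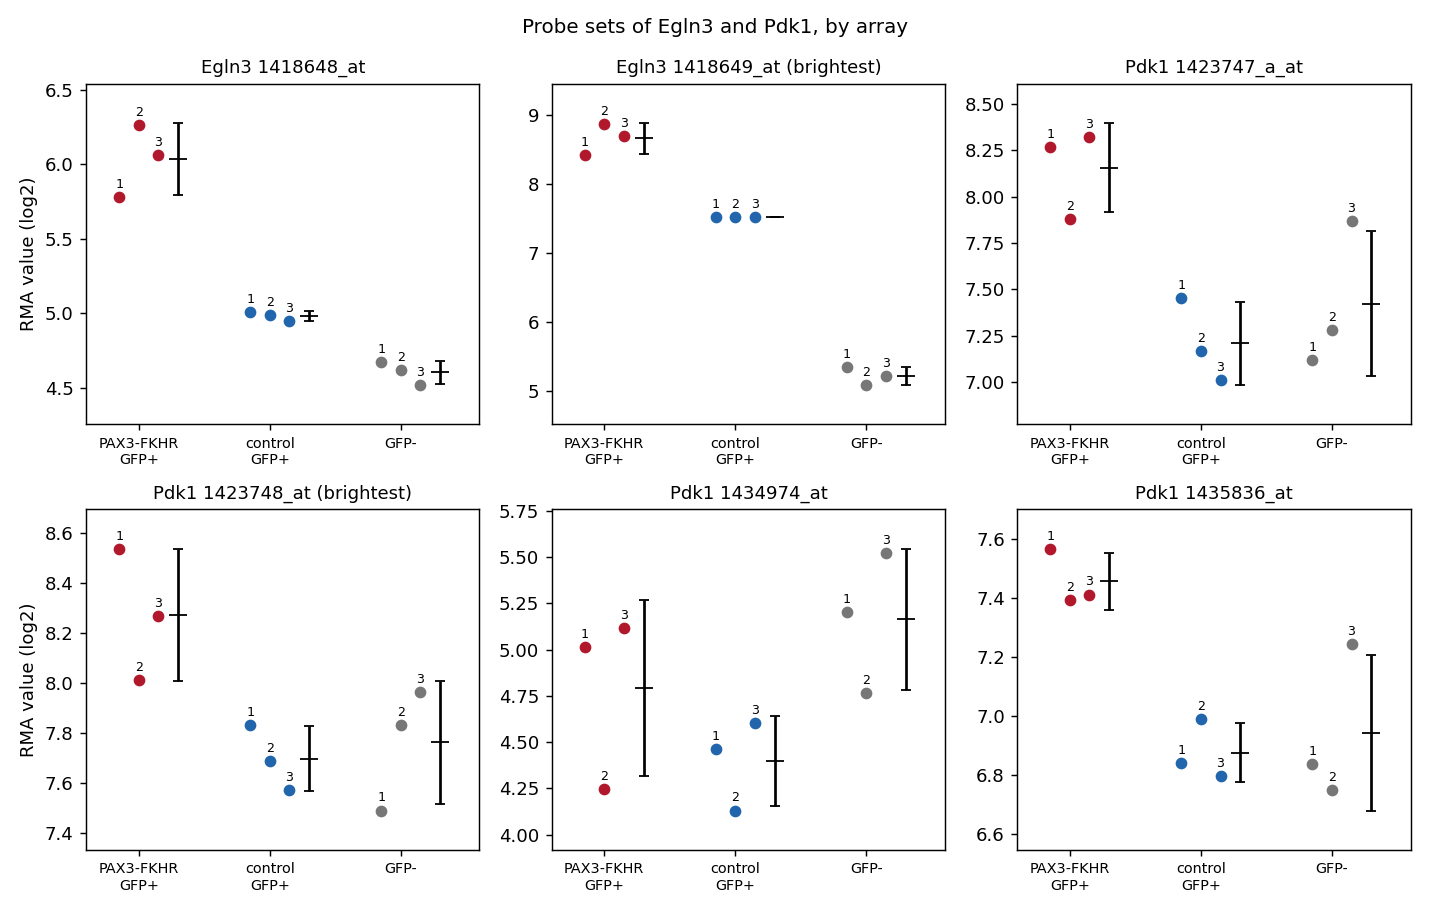
RMA value (log2, vertical axis) of each probe set of Egln3 and Pdk1, with 1 point per array labelled by replicate number and the mean ± SD of each group (n = 3) in black; axes differ between panels. Both Egln3 probe sets and 3 of 4 Pdk1 probe sets have all PAX3-FKHR GFP+ arrays above all control GFP+ arrays, but the differences of Pdk1, from 0.39 to 0.95, were not called.

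Pyruvate dehydrogenase kinase 1, Pdk1, a HIF target that turns glucose carbon towards lactate, is the other gene that the study's limb lists hold, so it too was picked on these arrays. Its brightest probe set read 8.54, 8.01 and 8.27 in PAX3-FKHR GFP+ cells, 7.83, 7.69 and 7.57 in control GFP+ cells and 7.49, 7.83 and 7.97 in GFP- cells. PAX3-FKHR GFP+ cells lie above both other groups on every array, and the other groups overlap. The difference from control GFP+ cells was 0.58 ± 0.18, 1.49-fold, with a 95% interval of 0.18 to 0.98, and was not called (limma adjusted p = 0.405). Probe set 1423747_a_at gave 0.95 (limma adjusted p = 0.140), 1435836_at 0.58 (limma adjusted p = 0.268) and 1434974_at 0.39 (limma adjusted p = 0.793). All 4 probe sets point the same way and none passed. Pdk2 lay under the median of all values on every array, and Pdk3 was at 7.73 to 7.85 in PAX3-FKHR GFP+ cells and 8.06 to 8.23 in control GFP+ cells, a difference of -0.33 (limma adjusted p = 0.737).

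Among the glucose transporters, Slc2a3 (GLUT3) came nearest to a call. It was at 9.33, 8.85 and 9.35 in PAX3-FKHR GFP+ cells, 9.003, 8.85 and 8.55 in control GFP+ cells and 9.32, 9.83 and 10.67 in GFP- cells. Control GFP+ cells lie under all GFP- cells, while PAX3-FKHR GFP+ cells overlap with both. The difference between control GFP+ and GFP- cells was -1.14 ± 0.30, just outside the threshold (limma adjusted p = 0.0506), and -1.01 without control GFP+ replicate 3 (limma adjusted p = 0.113). It was called in 6 of 18 alternative analyses. A second bright probe set, 1455898_x_at, differed by -1.02 (limma adjusted p = 0.097). Erythroid markers rank the GFP- arrays in the same order as Slc2a3, with mean deviations of -1.12, 1.77 and 2.56 over 9 genes, of which 1 of 9 was called in that comparison, Klf1, which was lower in control GFP+ cells. In the GFP+ groups the orders differ: the marker means given above for PAX3-FKHR GFP+ cells run opposite to Slc2a3, and in control GFP+ cells the markers were highest in replicate 2 and Slc2a3 in replicate 1. The summed level of the erythroid markers was 52.2 to 67.0 in control GFP+ cells and 54.4 to 87.6 in GFP- cells, Hbb-y was at 10.17 or higher on every array, and their part in the Slc2a3 values was not tested. The difference of Slc2a3 between the GFP+ groups was 0.38 (95% interval -0.28 to 1.04). Slc2a1 (GLUT1), the transporter of most embryonic cells, ran from 8.998 to 9.95 by its brightest probe set, with all groups overlapping. A dimmer one, 1426600_at, had both GFP+ groups wholly under GFP- cells. Its differences were -0.51 for control GFP+ (limma adjusted p = 0.169) and -0.74 for PAX3-FKHR GFP+ cells (limma adjusted p = 0.0515). All groups overlapped for the remaining one, 1426599_a_at. The insulin-dependent Slc2a4 (GLUT4) ran from 6.23 to 7.04. None of the 3 transporters was called.

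The upper part of glycolysis, from hexokinase to triose phosphate isomerase, was measured by 8 genes. By their brightest probe sets, 0 of 8 were called in any comparison, beside 0.537% to 6.79% of all probe sets. Pfkp, the platelet-type phosphofructokinase, had the largest difference between the GFP+ groups of all glycolytic genes. It was at 6.39, 6.88 and 7.28 in PAX3-FKHR GFP+ cells, 5.62, 6.11 and 6.23 in control GFP+ cells and 5.54, 5.75 and 6.29 in GFP- cells. PAX3-FKHR GFP+ cells lie above both other groups, and the same replicate numbers are low and high in each group. The difference from control GFP+ cells was 0.87 ± 0.27, 1.82-fold (limma adjusted p = 0.387). With the replicate block on the 6 arrays compared, it passed (limma adjusted p = 0.0464). A second probe set, 1437759_at, differed by 0.78 (limma adjusted p = 0.127), while the dim 1430634_a_at differed by -0.21. Against GFP- cells the difference was 0.99 (limma adjusted p = 0.0517).

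The muscle and liver forms Pfkm and Pfkl did not show the pattern of Pfkp. Their differences between the GFP+ groups were -0.04 (95% interval -0.32 to 0.24) and 0.04 (95% interval -0.23 to 0.31). A dimmer Pfkl probe set, 1453541_at, was called lower in PAX3-FKHR GFP+ than in GFP- cells, at -0.73 (limma adjusted p = 0.0313), where the brightest one differed by -0.17. Hexokinase 2, Hk2, was at 9.14, 9.19 and 9.31 in control GFP+ cells and 8.65, 8.74 and 8.98 in GFP- cells. These groups do not overlap, but the difference of 0.42 was not called (limma adjusted p = 0.104). Hk1 differed by -0.06 between the GFP+ groups. Aldoa, the muscle-type aldolase, was at 11.89, 11.56 and 11.89 in PAX3-FKHR GFP+ cells, 11.45, 11.39 and 12.09 in control GFP+ cells and 11.13, 11.32 and 11.08 in GFP- cells. Both GFP+ groups lie above GFP- cells, by 0.60 (limma adjusted p = 0.0788) and 0.46 (limma adjusted p = 0.172). Of its 5 probe sets, 1433604_x_at was called for PAX3-FKHR GFP+ against GFP- cells, at 0.56 (limma adjusted p = 0.0326). Aldoc and Tpi1 differed by -0.09 and -0.01 between the GFP+ groups.

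**Figure D4:**
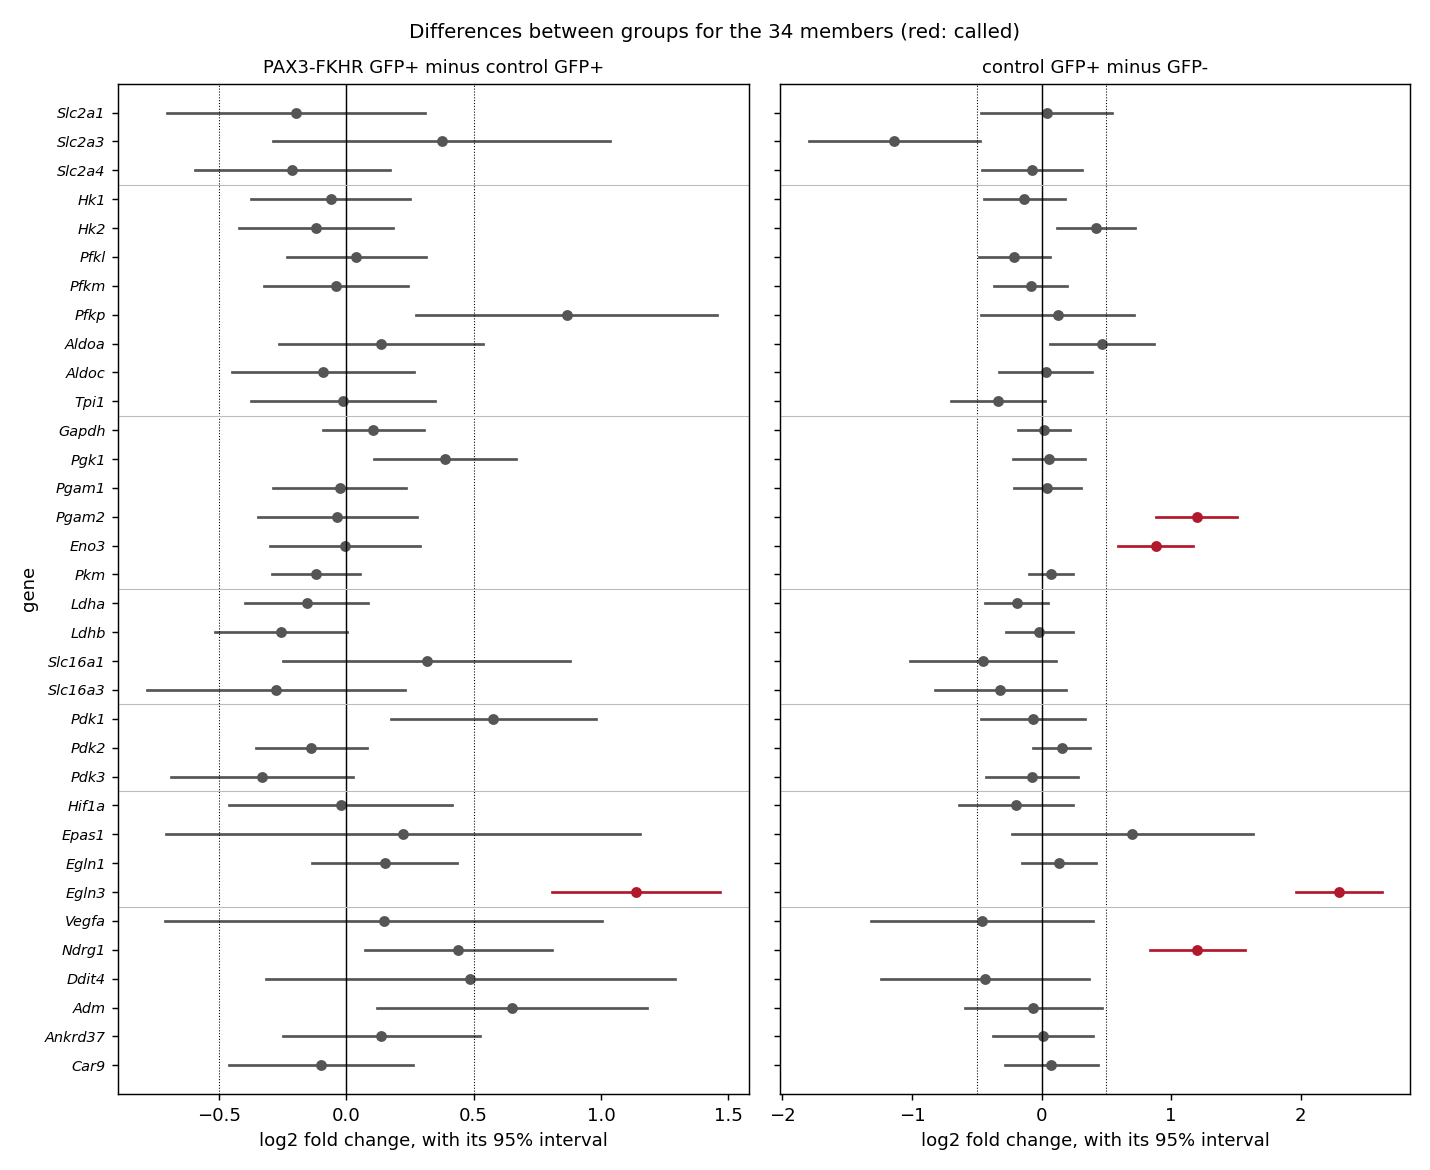
Log2 difference (horizontal axis) of each of the 34 genes for PAX3-FKHR GFP+ minus control GFP+ cells (left) and control GFP+ minus GFP- cells (right), with the 95% interval of the limma fit; red marks called genes and dotted lines the threshold of 0.5. Egln3 is the 1 red gene on the left, and Pgam2, Eno3, Egln3 and Ndrg1 are red on the right.

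In the lower part of glycolysis, 2 of 6 genes were called higher in each GFP+ group than in GFP- cells. Of all probe sets, 1.84% were higher in control GFP+ cells and 2.80% in PAX3-FKHR GFP+ cells than in GFP- cells. Of all 18194 genes read by their brightest probe set, 507 and 710 were higher, in the same order. Pgam2, the muscle form of phosphoglycerate mutase, was at 6.77, 6.89 and 6.54 in PAX3-FKHR GFP+ cells, 6.76, 6.85 and 6.69 in control GFP+ cells and 5.49, 5.71 and 5.50 in GFP- cells. Eno3, the muscle enolase, was at 9.99, 9.69 and 9.66 in PAX3-FKHR GFP+ cells, 9.66, 9.83 and 9.86 in control GFP+ cells and 8.82, 8.94 and 8.95 in GFP- cells. For both genes the GFP+ groups overlap with each other and lie wholly above GFP- cells. Control GFP+ cells exceeded GFP- cells by 1.20 ± 0.14 for Pgam2, 2.29-fold (limma adjusted p = 0.00106), and by 0.88 ± 0.13 for Eno3, 1.84-fold (limma adjusted p = 0.00414). Without control GFP+ replicate 3 these differences were 1.24 and 0.84, and both stayed past the threshold. PAX3-FKHR GFP+ cells exceeded GFP- cells by 1.16 and 0.87 (limma adjusted p = 0.000807 and 0.003). Between the GFP+ groups the 95% intervals were -0.35 to 0.28 for Pgam2 and -0.30 to 0.29 for Eno3. Eno3 is named in the study's somite list, and each of these genes has 1 probe set.

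The forms of these enzymes found in most tissues differed less. Pgam1 was at 11.003, 11.05 and 11.05 in control GFP+ cells and 10.80, 11.08 and 11.09 in GFP- cells, which overlap, and its difference was 0.04 (95% interval -0.22 to 0.30). Pkm, the pyruvate kinase of most tissues, ran from 11.75 to 11.93 over all arrays, with differences of -0.12 between the GFP+ groups and 0.07 between control GFP+ and GFP- cells. Gapdh, which the study used as its reference transcript in PCR, ran from 12.75 to 13.05, the lowest value being control GFP+ replicate 3, and it differed by 0.11 between the GFP+ groups (95% interval -0.09 to 0.31). It is read by the array's own control probe set for its 3' end. Pgk1, a phosphoglycerate kinase and classical HIF target, was at 12.51, 12.32 and 12.12 in PAX3-FKHR GFP+ cells, 11.87, 12.04 and 11.88 in control GFP+ cells and 11.67, 11.90 and 12.04 in GFP- cells. PAX3-FKHR GFP+ cells lie above both other groups, but the differences of 0.39 and 0.45 were not called (limma adjusted p = 0.444 and 0.0616). Of its other probe sets, 1439435_x_at was called for PAX3-FKHR GFP+ against GFP- cells, at 0.57 (limma adjusted p = 0.00768), and 1438640_x_at differed by 0.44 (limma adjusted p = 0.0303), under the fold threshold. Between the GFP+ groups they differed by 0.25 and 0.29 and were not called.

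Eno3 and Pgam2 were set beside markers of differentiating muscle. Of 22 such markers, 11 were higher in control GFP+ than in GFP- cells and 0 were lower, and between the GFP+ groups 1 of 22 was called, Tnnt1, which was higher in PAX3-FKHR GFP+ cells. Their summed level was 161.0 to 168.1 in PAX3-FKHR GFP+ cells, 143.6 to 158.6 in control GFP+ cells and 110.9 to 131.0 in GFP- cells. Among GFP- cells, replicate 3 had the highest markers, at a mean deviation of -0.67 against -1.52 and -1.58. Actc1 was at 9.03 there against 4.79 and 5.18 in the other replicates, and Myh7, Tnnt2 and Ttn were at 8.13, 8.11 and 7.47, while Myog and Myh3 stayed between 4.22 and 4.82 on all GFP- arrays, under the median of all values. Control GFP+ replicate 3 had the lowest markers of its group, at a mean deviation of -0.09 against 0.59 and 0.57, its Pgam2 value of 6.69 was the lowest of its group, and its Eno3 value of 9.86 the highest. In PAX3-FKHR GFP+ cells Pgam2 had the same replicate order as the markers, which were at 0.98, 1.02 and 0.70, and Eno3 did not. The part of differentiating cells in the Eno3 and Pgam2 values was not tested.

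Lactate production and export was measured by 4 genes. Called in any comparison were 0 of 4, beside 0.537% to 6.79% of all probe sets. Ldha, the lactate dehydrogenase subunit raised by HIF, was at 11.52, 11.77 and 11.85 in PAX3-FKHR GFP+ cells, 11.91, 11.92 and 11.78 in control GFP+ cells and 11.98, 12.19 and 12.00 in GFP- cells. Both GFP+ groups lie under GFP- cells, by 0.35 or less on the log2 scale. Ldhb was at 10.90 to 11.03 in PAX3-FKHR GFP+ cells and 11.11 to 11.38 in control GFP+ cells, a difference of -0.25 (limma adjusted p = 0.708). The lactate carrier Slc16a1 was at 8.37 in control GFP+ replicate 3 and between 9.21 and 9.63 on all other arrays. Slc16a3, the carrier of glycolytic cells, was at 6.35 in GFP- replicate 1 and between 4.99 and 5.54 elsewhere.

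How far the genes that were not called could differ depends on their spread. Between the GFP+ groups, the 95% interval of 16 of 33 genes lay within a log2 difference of 0.5 in either direction, and that of 27 of 33 within 1. The 6 genes with wider intervals are Slc2a3, Pfkp, Epas1, Vegfa, Ddit4 and Adm. Between control GFP+ and GFP- cells, 17 of 30 intervals lay within 0.5 and 25 of 30 within 1. Standard errors ran from 0.0774 for Pkm to 0.419 for Epas1, with a median of 0.162. RMA brings all arrays to a common distribution, so a shift shared by most transcripts would not be seen.

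Averaged over each list, the hypoxia genes were spread over a wider range of values than the glycolytic genes. The mean deviation of the 10 hypoxia genes from their own means was 0.28, 0.42 and 0.27 in PAX3-FKHR GFP+ cells, -0.02, 0.15 and -0.13 in control GFP+ cells and -0.49, -0.38 and -0.11 in GFP- cells. PAX3-FKHR GFP+ cells lie highest on every array, and control GFP+ replicate 3 lies just under GFP- replicate 3. Without Egln3 and Ndrg1, left out after their values were seen and so given without a test, the mean ran from 0.05 to 0.23 in PAX3-FKHR GFP+ cells, from -0.21 to 0.08 in control GFP+ cells and from -0.25 to 0.19 in GFP- cells, and all groups overlap. For the 24 glycolytic genes every array lay between -0.09 and 0.08.

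**Figure D5:**
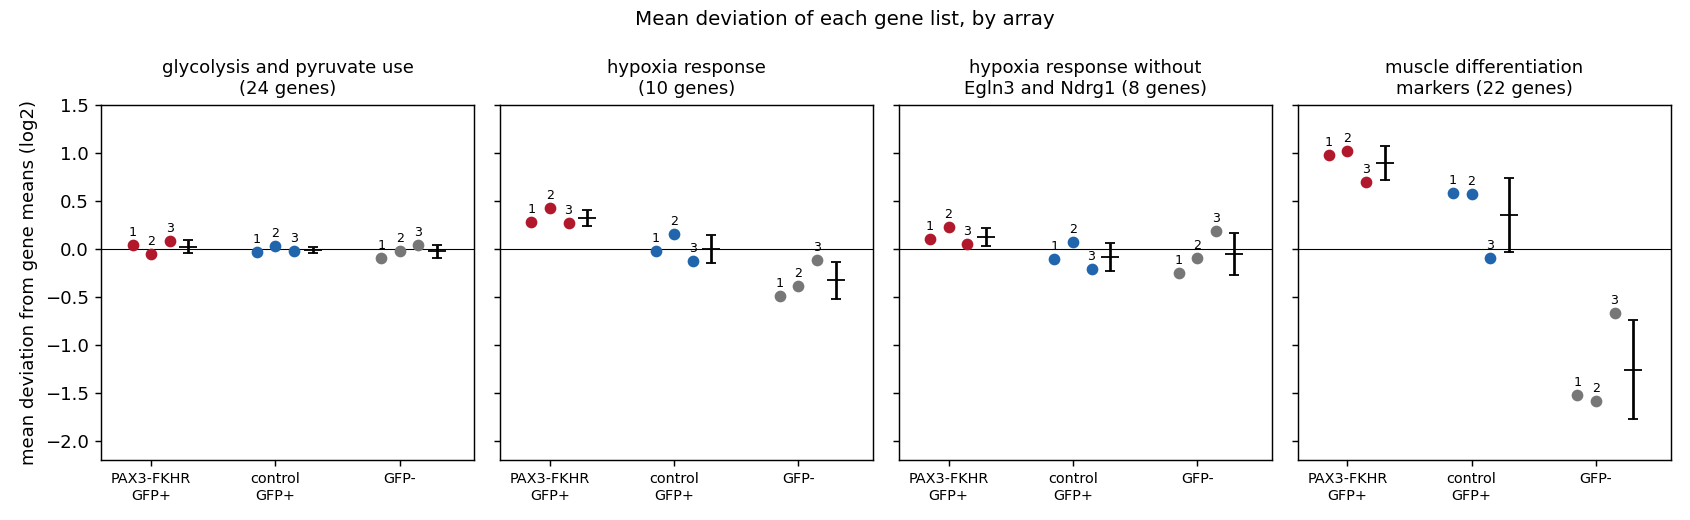
Mean deviation of the genes of a list from their own means over the 9 arrays (log2, vertical axis), 1 point per array labelled by replicate number, with the mean ± SD of each group (n = 3) in black. The 24 glycolytic genes stay between -0.09 and 0.08, while the muscle markers run from -1.58 to 1.02.

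Other genes of the same pathways were read from lists written from general knowledge, but with earlier results of these data known. Their counts are therefore descriptions and not independent evidence. Of 45 other genes of glucose metabolism, 0 were called between the GFP+ groups, beside 0.537% of all probe sets. From GFP- to control GFP+ cells 2 rose and 0 fell (4.44%), beside 5.84% of all probe sets and 4.72% of all genes. These are Tigar, a fructose bisphosphatase that slows glycolysis, at 6.86, 6.81 and 7.37 against 6.27, 6.17 and 6.14, and Pdk4, a further pyruvate dehydrogenase kinase, at 4.58, 4.61 and 5.51 against 4.02, 3.72 and 4.19. Neither pair of groups overlaps, and the differences were 0.82 (limma adjusted p = 0.0214) and 0.92 (limma adjusted p = 0.0434). The highest value of each is control GFP+ replicate 3, and without it the differences were 0.64 and 0.62, both still called. Pdk4 was over the median of all values, 5.11, on that array only, so its other values are close to background. Dlat, a subunit of pyruvate dehydrogenase, was next at 0.49 (limma adjusted p = 0.0523).

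Of 53 other genes of the hypoxia response, 2 were higher and 0 lower in PAX3-FKHR GFP+ than in control GFP+ cells. That is 3.77%, beside 0.537% of all probe sets and 0.813% of all genes read by their brightest probe set. Stc2, the secreted glycoprotein stanniocalcin 2, was at 6.73, 6.74 and 6.85 against 5.24, 5.44 and 4.38, a difference of 1.75 ± 0.24 (limma adjusted p = 0.0109). Errfi1, a feedback inhibitor of the EGF receptor, was at 10.71, 10.62 and 10.55 against 9.49, 9.62 and 9.22, a difference of 1.18 ± 0.17 (limma adjusted p = 0.0149). Neither gene's groups overlap, and without control GFP+ replicate 3 the differences were 1.43 (limma adjusted p = 0.00492) and 1.07 (limma adjusted p = 0.0424). In control GFP+ against GFP- cells, 2 of 53 were higher and 0 lower (3.77%), beside 5.84% of all probe sets and 4.72% of all genes. Pgf, the placental growth factor, was at 7.46, 7.41 and 7.51 against 5.85, 5.44 and 6.03, and Stc1, stanniocalcin 1, at 7.27, 7.43 and 7.22 against 5.69, 5.86 and 6.05. Both pairs of groups stand apart, by 1.68 (limma adjusted p = 0.000323) and 1.44 (limma adjusted p = 0.00113). Without control GFP+ replicate 3 both were called again, and P4ha2, another collagen prolyl hydroxylase, was called as well, lower in control GFP+ cells by a log2 difference of -0.62. The next smallest adjusted p was that of P4ha3, a collagen prolyl hydroxylase, whose difference of 0.43 is under the threshold of 0.5. P4ha3 lay under the median of all values on every array. The medians of both lists lay between -0.04 and 0.10 in these comparisons, near those of all probe sets, -0.01 and 0.06.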

How the data were processed

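Transcripts of GFP-sorted forelimb bud cells were measured on 9 Affymetrix Mouse430_2 arrays, 3 per group, after two-cycle amplification. The deposited values are log2 signals of probe sets. The authors computed them with RMA (version not stated), a method that gives 1 value per probe set after background correction and quantile normalization. Absent calls were not used here. The table holds 45101 probe sets. Array controls (64) were left out except 3 of Gapdh, which has no other probe set with 1 symbol, and 45040 were tested. Of these, 34948 have 1 gene symbol in the platform annotation, 932 several and 9160 none.

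A single limma model (limma 3.58.1, R 4.3.3; lmFit, eBayes with an intensity trend) covered all 9 arrays, with Benjamini-Hochberg adjustment over all probe sets. The study used a local pooled error test, rebuilt here as an alternative. The fit was tested on simulated data. The genes and lists were chosen with earlier results of these data known. Described in full are genes called in a comparison or present in the study's tables, and further genes were chosen after their values were seen. Promoters are from RefSeq tables.

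Replicate numbers come from the sample titles. After removal of group means, equally numbered arrays of the GFP+ groups correlated by 0.164, 0.472 and 0.287, so the number was tried as a block. No such pairing was seen for GFP- arrays with control GFP+ arrays (0.0651, 0.0683 and -0.205) or with PAX3-FKHR GFP+ arrays (-0.237, 0.155 and -0.288). Whether a number stands for a shared day or litter is not given in the sources used here. Alternatives were median centring, repeated quantile normalization, no trend, array weights, only the 6 arrays compared, a filter on 3 arrays at the overall median (23558 probe sets kept, 32 of the 34 genes), other fold thresholds, the mean of a gene's probe sets, the replicate block, and leaving out each array in turn. The number of arrays limits the precision.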

Additional observations from a re-analysis of the deposited data

How the results depend on the processing

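The counts of hypoxia genes called, 1 between the GFP+ groups and 2 in each comparison with GFP- cells, were the same number under every alternative run. Egln3, Ndrg1 and Pgam2 were called in 18 of 18 alternatives in each comparison where they were called, and Eno3 in 17 of 18, being lost at a log2 difference of at least 1. The largest limma adjusted p of Egln3 between the GFP+ groups was 0.0496. Leaving out single control GFP+ arrays could not change its difference there, since its control GFP+ values are identical. The count of glycolytic genes called between the GFP+ groups, 0, became 1 (Pfkp) with the replicate block on the 6 arrays compared and was 0 with the block on all arrays. Between control GFP+ and GFP- cells it was 2, and 1 at a log2 difference of at least 1. For PAX3-FKHR GFP+ against GFP- cells it was 2, and became 4 after repeated quantile normalization, 5 with array weights, 4 with the local pooled error test and 1 at a log2 difference of at least 1. The block changed no other call of the 34 genes between the GFP+ groups, and with it on all arrays the other comparisons gave 2 and 3 glycolytic genes. For the 3 comparisons, in the order above, leaving out single arrays gave 0 to 0, 2 to 3 and 2 to 3 glycolytic genes. Slc2a3 (control GFP+ against GFP-) was called without GFP- replicate 1, at a limma adjusted p of 0.0221. Near the threshold were also Pfkp, called in 8 of 18 alternatives for PAX3-FKHR GFP+ against GFP- cells (limma adjusted p = 0.0301 without PAX3-FKHR GFP+ replicate 1 and 0.0327 without GFP- replicate 3), and Aldoa, called in 5 of 18. The cause of these changes was not tested. No result changed sign where it was called. With 3 arrays per group, small differences are often not detectable, and differences well over the threshold of 0.5 can also go uncalled. Between the GFP+ groups this held for Pfkp at 0.87 and Adm at 0.65, each by its brightest probe set. Genes that were not called may therefore differ by more than 0.5. Genes under the median of all values, such as Car9 and Pdk2, are close to background.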
